A study of Mus musculus with 39 samples.

Results

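The receptors described here bind the constant (Fc) part of antibodies. They are 6 genes of the 43430 in the count table, given as a list of names and matched by symbol to Ensembl rows: Fcgr1, Fcgr3 and Fcgr4, which encode activating receptors for IgG, Fcer1g, which encodes the signalling chain those receptors share, Fcgr2b, the inhibitory receptor for IgG, and Fcgrt, the neonatal Fc receptor. All 6 had enough counts to be tested in every comparison.

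The table covers 39 RNA sequencing libraries of sorted lung cells of C57BL/6J mice. Lung monocytes of naive mice gave 20 libraries, and Siglec F-low alveolar macrophages of bleomycin-treated mice gave 19; bleomycin injures the lung and causes its fibrosis. Both ages, young and old, were given either saline or ISRIB, an inhibitor of the integrated stress response. There are 8 groups of 5 libraries each, except young ISRIB macrophages with 4. The young mice were 8 to 12 weeks old per the sample labels and 3 to 5 months old per the series text, and the old mice were over 18 months or 18 to 24 months old. The series text has ISRIB injected daily from day 7 and cells collected on day 21 after bleomycin, and it describes the macrophages as derived from monocytes. Every macrophage library is from a bleomycin-treated lung and every monocyte library from a naive one, so cell type and bleomycin cannot be told apart. Nothing in the labels says whether libraries of a group came from separate mice, so p-values measure the spread between these libraries only.

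Activating Fc receptors cluster on antibody-coated particles and signal through an activating motif (ITAM) that is carried, for the mouse receptors here, by the Fcer1g chain. Src-family kinases and Syk act on that motif, and the cell engulfs the particle or releases inflammatory mediators. Fcgr2b carries an inhibitory motif (ITIM) that recruits the phosphatase Inpp5d and dampens the same signal, so macrophages set their response to IgG by the balance of both kinds. Fcgrt works inside the cell with beta-2-microglobulin, where it binds IgG and albumin in acidic endosomes and returns them from degradation.

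Library totals were 4595331 to 16056708 counts, and the members had from 121 counts (the lowest, Fcgr4) to 10530 counts (the highest, Fcgr2b) in a library. Levels are in CPM, the usual unit of counts relative to the library total, with totals scaled by the TMM method over all 39 libraries. The shallowest library, replicate 4 of young saline monocytes, also had the highest Fcer1g and Fcgrt of its group, and replicate 1 of that group the highest Fcgr4. The age comparison in saline monocytes and the comparison of cell types in young mice are given with and without these 2 libraries. Leaving them out is an alternative chosen after seeing the data. It had to raise both differences for Fcgr4, Fcer1g and Fcgrt, so its values for these genes are a description and not a test. The sorted cells carried markers of their labels: Siglecf averaged 52.1 CPM in young saline macrophages and 0.558 CPM in young saline monocytes, and the classical monocyte gene Ly6c2 averaged 0.982 CPM and 554 CPM in the same groups. Siglecf was not level across macrophage groups. It was at 47.2 to 59.5 CPM in young saline and 60.0 to 84.0 CPM in young ISRIB libraries. In old libraries it was at 55.8 to 120 CPM with saline and 103 to 156 CPM with ISRIB. Its relation to the members' differences was not tested. Marker sums of nonclassical monocytes were also high in the monocyte libraries (3109 to 7830 CPM in young saline).

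Positions are of the assembly GRCm38 (GENCODE vM21 annotation). Fcgr1 (ENSMUSG00000015947) lies on the minus strand at chr3:96282909-96293969 and Fcgrt (ENSMUSG00000003420) on the minus strand at chr7:45092990-45103851. The others share one interval of chromosome 1: Fcgr2b (ENSMUSG00000026656, minus strand, chr1:170958617-170976547), Fcgr4 (ENSMUSG00000059089, plus strand, chr1:171018920-171029761), Fcgr3 (ENSMUSG00000059498, minus strand, chr1:171051174-171064935) and Fcer1g (ENSMUSG00000058715, minus strand, chr1:171229572-171234365). All are protein-coding, and counts are over their exons. Antisense genes overlap Fcgr2b (Gm38204) and Fcgrt (Gm45669), and without knowledge of the strand setting, reads of such pairs cannot be told apart; the Gm38204 row had at most 1.18 CPM in any library.

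Fcgr2b and Fcgr3 are close relatives, and the longest stretch their transcripts share without a mismatch is shown because reads within it cannot be assigned to one of them. It is 129 bases long and lies in the coding part of both (bases 402 to 530 of an Fcgr2b transcript and 313 to 441 of an Fcgr3 transcript). It reads:

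Fcgr2b and Fcgr3, shared: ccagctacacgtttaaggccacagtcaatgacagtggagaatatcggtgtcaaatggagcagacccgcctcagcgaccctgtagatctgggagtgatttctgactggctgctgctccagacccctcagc

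Windows of 50 bases found in both genes made up 2.92% of Fcgr2b and 9.58% of Fcgr3, and no such window was shared between any other pair of members. The longest runs shared by other pairs of receptors for IgG were 13 to 14 bases. How the counting handled reads that fit both genes is not given in the sources used here, and whether it moved their values was not tested.

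For Fcgr1 and Fcgr4, the bases just upstream of the annotated exons are shown because each holds a match to one or more of 4 motifs searched on both strands, and because Fcgr4 differed with age while Fcgr1 was not called in any comparison. The motifs were GAGGAAGT (the PU.1 core of myeloid promoters), TTCNNNGAA (the GAS site of STAT factors), an interferon response element (TTTC repeated with 2 free bases between) and TGACTCA (AP-1). Sequences are from RefSeq (GRCm38.p6), 5′ to 3′ on the strand of the gene, with the matches in capitals; the Fcgr1 window is chr3:96293970-96294219 (minus strand) and the Fcgr4 window chr1:171018676-171018919 (plus strand).

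Fcgr1: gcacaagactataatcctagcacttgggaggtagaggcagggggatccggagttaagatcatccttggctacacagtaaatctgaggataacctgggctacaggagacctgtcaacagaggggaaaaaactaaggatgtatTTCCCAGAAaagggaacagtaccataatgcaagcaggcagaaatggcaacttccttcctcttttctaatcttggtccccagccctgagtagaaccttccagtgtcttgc

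Fcgr4: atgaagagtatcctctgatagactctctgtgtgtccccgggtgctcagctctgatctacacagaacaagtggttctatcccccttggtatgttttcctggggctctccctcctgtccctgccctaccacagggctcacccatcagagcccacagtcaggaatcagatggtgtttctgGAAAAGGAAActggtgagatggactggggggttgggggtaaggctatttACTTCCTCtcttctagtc

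The Fcgr1 match is to TTCNNNGAA, a motif that reads alike on both strands, and starts 109 bases before the RefSeq start. The Fcgr4 matches are to the interferon response element (73 to 64 bases before the start) and GAGGAAGT (24 to 17 bases before it), both on the other strand. Of 27025 mouse promoters of 250 bases upstream, 7.18% held TTCNNNGAA, 3.04% the interferon response element and 2.44% GAGGAAGT. The AP-1 motif was in none of the members' windows and in 4.43% of all promoters. A match is a description of the letters and not a bound site.

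Per kilobase of exon, which allows a comparison between genes, Fcer1g was the most abundant member in every group, with group means of 537 to 679 CPM per kb. Fcgr3 was next, at 205 to 360 CPM per kb, and Fcgr2b followed at 64.1 to 127 CPM per kb. Fcgr1 was at 38.99 to 61.2 CPM per kb, Fcgr4 at 34.98 to 84.9 CPM per kb and Fcgrt at 21.9 to 104 CPM per kb. In old ISRIB macrophages the means of Fcgr4 and Fcgrt (84.9 and 104 CPM per kb) were above that of Fcgr2b (72.2 CPM per kb), and in the other 7 groups both were below it. The order of Fcgr4 and Fcgr2b in that group depended on the length used. With the longest transcript in place of all exons, Fcgr4 was below Fcgr2b there (mean 11.8% against 16.4% of the 4 receptors for IgG). When the 8 groups were ordered by mean CPM for each gene, neighbouring groups did not overlap in 1 of 42 steps, that from monocytes to macrophages in Fcgrt. That order places groups of similar mean side by side, so overlap of neighbours was largely set by the ordering. It does not bear on groups further apart: Fcgr2b, for example, did not overlap between young and old ISRIB macrophages. The plot of levels by library shows all of these values.

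**Figure D1:**
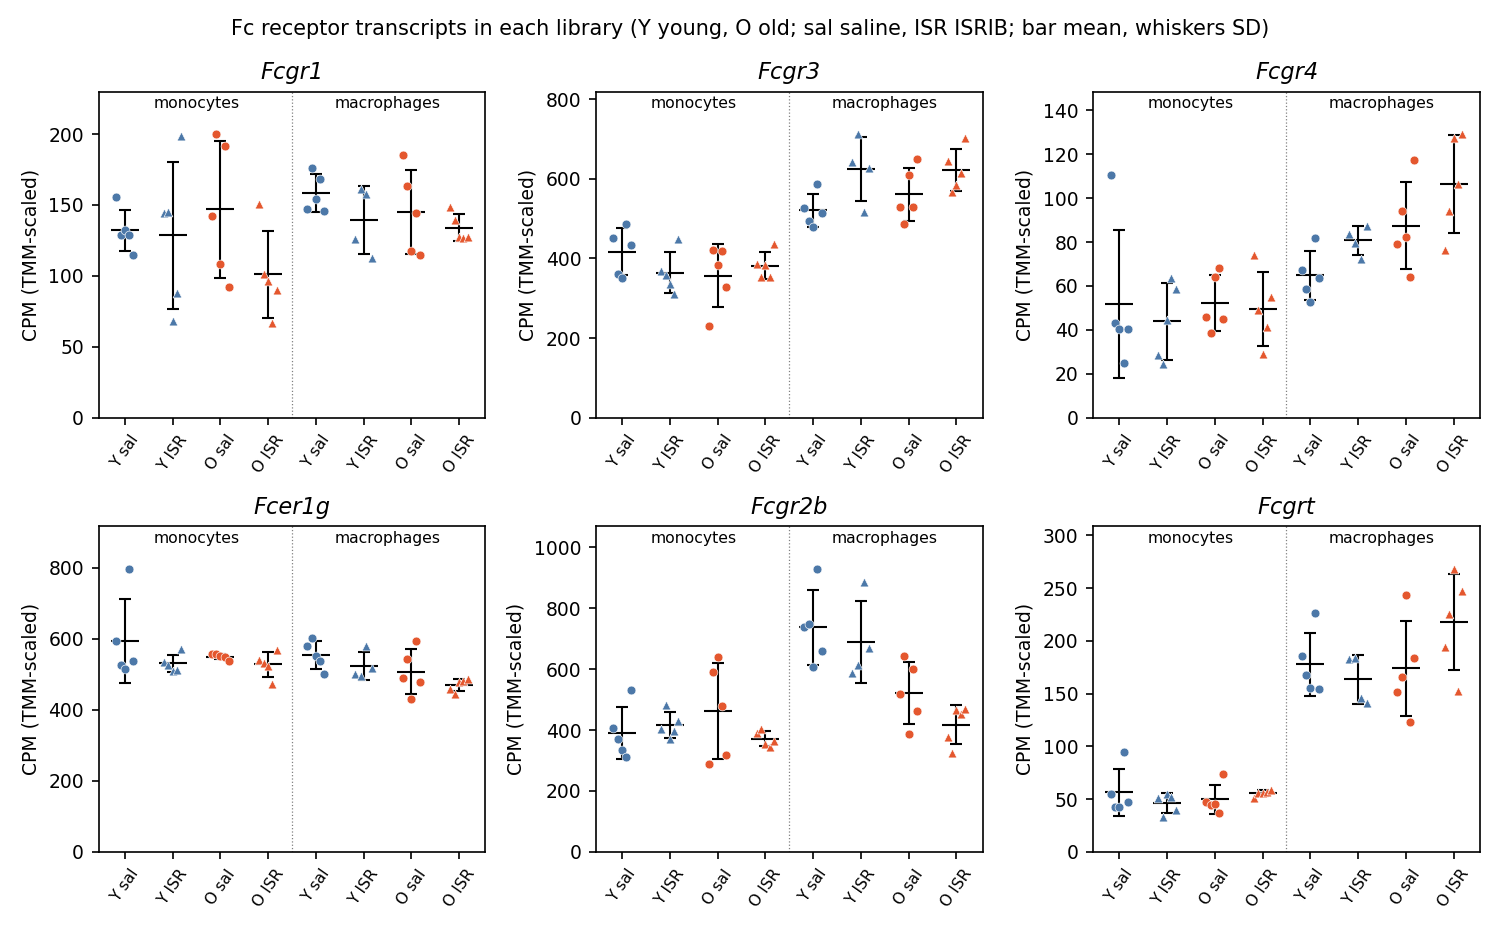
TMM-scaled CPM (vertical axis from 0) of the 6 members in each library, with 4 monocyte groups on the left and 4 macrophage groups on the right of each panel; circles are saline, triangles ISRIB, blue young, red old, bars means and whiskers SD. Fcgrt separates the 2 cell types in all libraries, and Fcgr2b has its highest group means in young macrophages (738 and 690 CPM).

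In macrophages, with saline and ISRIB averaged, Fcgr2b fell and Fcgr4 rose with age, and no other member was called. Fcgr2b fell by 0.61 ± 0.10 on the log2 scale (SE; 0.655 times the young level), with an adjusted p of 4.78e-04 by edgeR's quasi-likelihood test with Benjamini-Hochberg adjustment. Fcgr4 was higher by 0.42 ± 0.11 (SE; 1.34-fold), with an adjusted p of 0.0215 by the same test. A gene is called when its adjusted p is under 0.05. The 2 calls of 6 members stand beside 4.86% of all 12171 genes called in this comparison, 3.12% higher and 1.74% lower.

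Fcgr2b, the inhibitory receptor, was at 738, 749, 609, 930 and 661 CPM in the 5 young saline macrophage libraries. The 5 old saline libraries had 519, 642, 387, 601 and 462 CPM. Under ISRIB the 4 young libraries had 588, 615, 886 and 670 CPM, and the 5 old libraries 379, 323, 466, 453 and 468 CPM. Every old ISRIB library was below every young ISRIB library, while the saline groups overlapped by 1 old library of 642 CPM above the lowest young one of 609 CPM. In ISRIB mice alone the difference was -0.72 ± 0.15 (SE, log2; edgeR adjusted p = 0.0123, 1 of 6 members called and 0.937% of all genes). In saline mice alone it was -0.50 ± 0.14 (SE, log2; edgeR adjusted p = 0.0703), which missed the threshold. There edgeR called 0 of 6 members and 1.16% of all genes, and DESeq2 called 1 member, Fcgr2b (adjusted p = 0.0181). At an unadjusted edgeR p under 0.05 were 2 members, beside 1545 of all 12171 genes. In bulk libraries, fewer cells of a type and less RNA per cell cannot be told apart.

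The Fcgr2b call in ISRIB mice rested in part on young ISRIB replicate 3, which had the highest value of its group: without it the difference was -0.57 (edgeR adjusted p = 0.0675). The call was also lost in a fit of all 39 libraries (adjusted p = 0.0573). Fcgr2b in saline mice became called when old saline replicate 2 was left out (-0.58, edgeR adjusted p = 0.0269). The averaged call was kept in each of the 19 fits that left out 1 macrophage library.

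Fcgr4, an activating receptor for IgG2a, IgG2b and IgG2c subclasses, was at 67.1, 58.8, 52.6, 81.8 and 63.6 CPM in young saline macrophages and 79.1, 93.9, 82.5, 64.2 and 117 CPM in old ones. Under ISRIB it was at 83.5, 79.5, 72.4 and 87.5 CPM in young and 76.5, 94.0, 127, 106 and 129 CPM in old macrophages. The old libraries reached higher values, yet both pairs of groups overlapped. Neither treatment alone gave a call: the log2 difference was 0.44 ± 0.15 in saline (SE; edgeR adjusted p = 0.164) and 0.40 ± 0.16 in ISRIB mice (SE; edgeR adjusted p = 0.257). The averaged call was lost without young ISRIB replicate 3 or old ISRIB replicate 5 (adjusted p up to 0.0503), and in a fit of all 39 libraries (0.42, adjusted p = 0.321).

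Markers of several cell types moved with age in the same macrophage libraries, where edgeR called 4.86% of all genes with saline and ISRIB averaged. Of 10 B and plasma cell markers tested, 8 were higher in old macrophages, and their summed level was 8.53 to 30.1 CPM in young and 25.6 to 601 CPM in old libraries. B cells are known to carry Fcgr2b as their only Fc receptor for IgG, and their share of its counts here was not tested. The 3 libraries with the highest B cell sums (433, 601 and 376 CPM, in old saline replicate 5 and old ISRIB replicates 3 and 5) were also the 3 with the highest Fcgr4 of all macrophage libraries (117, 127 and 129 CPM). Without these 3, an alternative chosen after seeing the data, the age difference of Fcgr4 was 0.25 ± 0.10 (SE; edgeR adjusted p = 0.226) and that of Fcgr2b -0.65 ± 0.11 (SE; edgeR adjusted p = 0.00280). The same 3 libraries had the highest sum of mature alveolar macrophage markers within their own groups (4898, 5497 and 5822 CPM). That list had 6 of 11 members higher with age, with sums of 3826 to 4710 CPM in young and 4228 to 5822 CPM in old libraries. The sorted cells are themselves labelled alveolar macrophages, so these markers need not come from other cells. Neutrophil markers were higher in 2 of 6 tested, with sums of 49.1 to 75.3 CPM in young and 68.1 to 103 CPM in old libraries, and their defining gene Ly6g was at 0 in all macrophage libraries. Natural killer and T cell markers were higher in 3 of 7 tested, with sums of 1.31 to 7.70 CPM in young and 7.01 to 30.2 CPM in old libraries. Dendritic cell markers were higher in 1 of 6 tested (Clec9a), with sums of 7.23 to 14.1 CPM in all young and 16.6 to 32.5 CPM in all old libraries. Classical monocyte markers were higher in 2 of 8 and lower in 2 (Ccr2 by -1.27 ± 0.19, SE), with sums of 4092 to 7287 CPM in young and 4377 to 12209 CPM in old libraries. Of that list, Ly6c2 was at 0.197 to 7.58 CPM in macrophage libraries, against 266 to 654 CPM in monocyte libraries. The sums in macrophages thus came from other genes of the list. Nonclassical markers were higher in 1 and lower in 2 of 9. No epithelial, endothelial or fibroblast marker tested was called. Endothelial sums were 0.787 to 3.73 CPM in young saline and 4.72 to 15.2 CPM in old saline libraries, without overlap. Under ISRIB they were 0.964 to 9.57 CPM in young and 3.48 to 8.87 CPM in old libraries, which overlapped. Epithelial and fibroblast sums overlapped between the ages with either treatment. The 3 libraries left out were all old and had the highest Fcgr4, so leaving them out had to lower its age difference. That alternative therefore does not test the part of other cells. The relation of all these markers to the age differences of Fcgr4 and Fcgr2b was not tested.

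Fcgr3, the activating receptor of low affinity, differed with age by 0.05 ± 0.07 (SE, log2, averaged; edgeR adjusted p = 0.752), and Fcgr1, the receptor of high affinity, by -0.09 ± 0.09 (SE; adjusted p = 0.644). Fcer1g, on which both depend at the cell surface, was at 499 to 601 CPM in young saline, 495 to 579 CPM in young ISRIB, 432 to 595 CPM in old saline and 444 to 485 CPM in old ISRIB macrophages. Every old ISRIB library was below every young ISRIB library, yet the difference in ISRIB mice of -0.16 ± 0.09 (SE; edgeR adjusted p = 0.483) was not called. The averaged age difference of -0.14 ± 0.06 (SE; edgeR adjusted p = 0.185) also missed the threshold. Fcgrt differed by 0.19 ± 0.11 (SE; adjusted p = 0.397). It was at 141 to 184 CPM in young ISRIB and 153 to 268 CPM in old ISRIB macrophages, with a difference in ISRIB mice of 0.41 ± 0.17 (SE; edgeR adjusted p = 0.275).

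**Figure D2:**
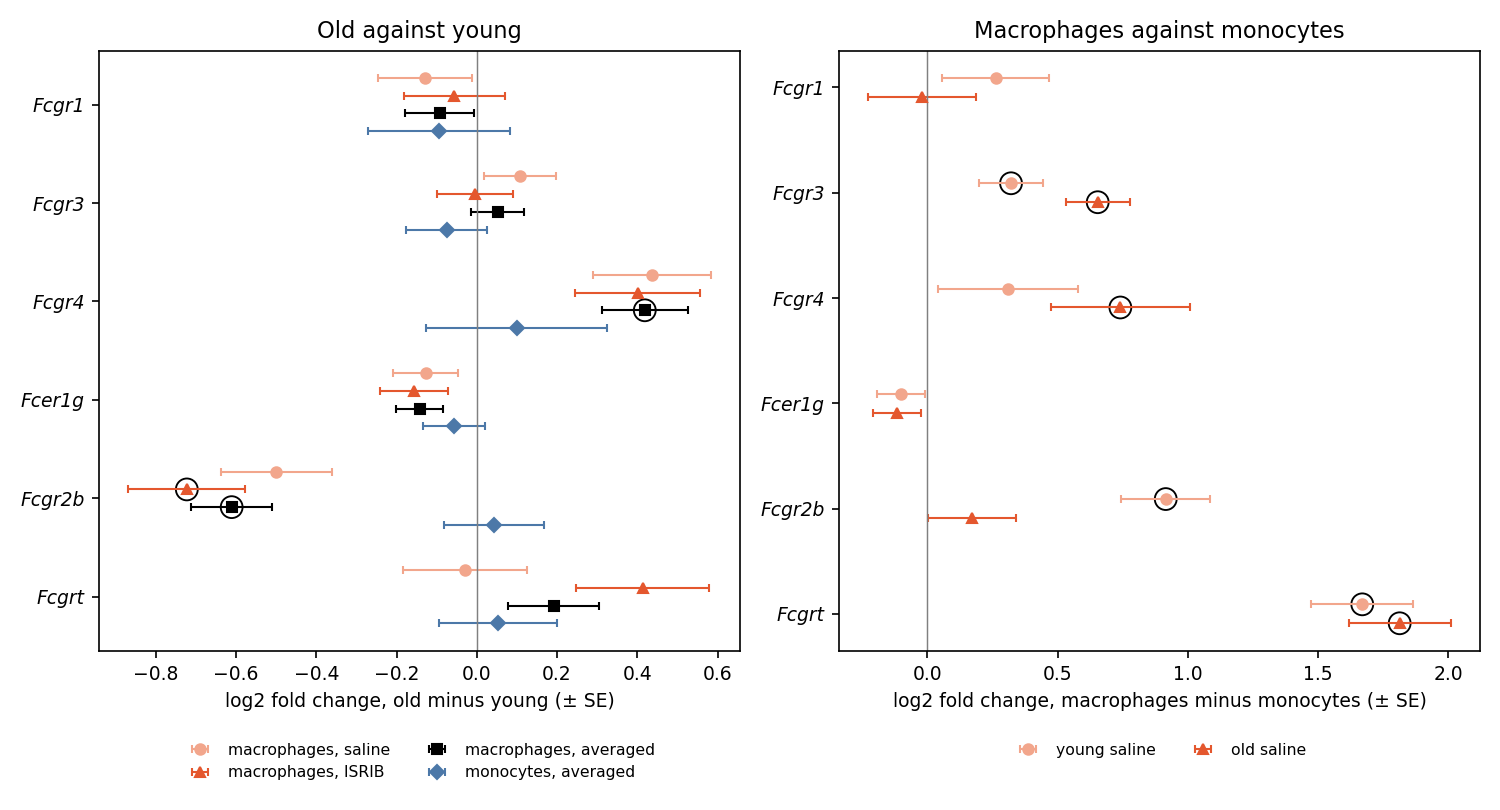
Log2 fold changes of the 6 members with standard errors, old against young on the left (4 comparisons per gene) and macrophages against monocytes on the right (young and old saline mice); ringed points were called by edgeR's quasi-likelihood test. Fcgr2b lies left of 0 in macrophages with age (-0.50 to -0.72) and at 0.04 in monocytes, and Fcgrt is the furthest to the right between cell types (1.67 and 1.81).

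In monocytes of naive mice, no member was called for age or ISRIB. Over the 7 monocyte comparisons edgeR called 0 of 6 members in each, and DESeq2 also called 0. The background was 0.0247% of genes called for age in saline mice, 0.123% for age averaged over treatments and 0.0% in the other 5. One test reached an unadjusted p under 0.05: Fcgr1 in old monocytes, at 142, 200, 108, 192 and 91.8 CPM with saline and 150, 102, 96.3, 66.8 and 89.7 CPM with ISRIB. These groups overlapped, and the difference of -0.56 ± 0.25 (SE, log2) had an unadjusted p of 0.0351 and an adjusted p of 0.614 by edgeR. In that comparison 918 of all 12170 genes had an unadjusted edgeR p under 0.05. With age in saline monocytes Fcgr4 gave 0.03 ± 0.32 (SE), and 0.36 ± 0.29 without replicates 1 and 4 of young saline monocytes (SE; edgeR adjusted p = 0.778); without them Fcgr2b gave 0.18, Fcer1g 0.08 and Fcgrt 0.18, and no member was called.

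The age difference of Fcgr2b in monocytes was 0.26 ± 0.18 with saline (SE, log2; edgeR adjusted p = 0.725), -0.17 ± 0.18 with ISRIB (SE; edgeR adjusted p = 0.958) and 0.04 ± 0.12 averaged over both (SE; edgeR adjusted p = 0.960). Its levels were 408, 370, 335, 311 and 530 CPM in young saline and 289, 592, 640, 479 and 317 CPM in old saline monocytes, and 371 to 481 CPM and 345 to 402 CPM under ISRIB. Old saline monocytes were thus the most variable group for this gene. The difference between the age effects, macrophages minus monocytes, was -0.65 ± 0.17 (SE; edgeR adjusted p = 0.0592). It was the only one of the 6 members at an unadjusted edgeR p under 0.05, beside 1557 of all 13587 genes. Here edgeR called 0 of 6 members and 0.743% of all genes, whereas DESeq2 called 1 member (Fcgr2b, adjusted p = 0.0170). Leaving out 1 library at a time gave adjusted p values of 0.0198 to 0.125 and a call in 6 of 39 fits, those without replicate 5 of young saline monocytes, replicate 1 or 5 of old saline monocytes, replicate 3 of young saline macrophages, replicate 1 of young ISRIB macrophages or replicate 2 of old saline macrophages.

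ISRIB did not move a member past the threshold in macrophages. With both ages averaged, edgeR called 0 of 6 members and 0.83% of all genes, and DESeq2 called 0 members. At an unadjusted edgeR p under 0.05 were 3 members, beside 2019 of all 12171 genes. The count of all genes called, 101, depended on single libraries: it was 13 without young ISRIB replicate 1 and 649 without young ISRIB replicate 3. Fcgr3 was at 528, 494, 480, 587 and 514 CPM in young saline and 642, 711, 518 and 628 CPM in young ISRIB macrophages. In old mice it was at 530, 487, 610, 530 and 649 CPM with saline and 644, 568, 583, 615 and 702 CPM with ISRIB. The ISRIB groups had the higher means and overlapped the saline groups at both ages, and the difference was 0.21 ± 0.07 (SE, log2; edgeR adjusted p = 0.102). It became called without young ISRIB replicate 3 or without old saline replicate 5, with a lowest adjusted p of 0.0238.

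For Fcgr4 the averaged ISRIB difference was 0.30 ± 0.11 (SE; edgeR adjusted p = 0.138), and without old saline replicate 5 it was called (adjusted p = 0.0402). Fcgr2b gave -0.21 ± 0.10 (SE; adjusted p = 0.301), with -0.10 ± 0.15 in young and -0.32 ± 0.14 in old mice. Fcgrt gave 0.10 ± 0.11 (SE; adjusted p = 0.709), with -0.12 ± 0.16 in young and 0.32 ± 0.15 in old mice. In each age alone, edgeR and DESeq2 called 0 of 6 members. There edgeR called 0.0% of all genes, but 304 genes in young mice without young ISRIB replicate 3. At an unadjusted edgeR p under 0.05 were 1 and 2 members in young and old mice, beside 1513 and 1112 of 12171 genes. For the ISRIB effect in old minus that in young mice, edgeR called 0 of 6 members (0 at an unadjusted p under 0.05) and 0.0% of all genes, and DESeq2 called 0 of 6.

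**Figure D3:**
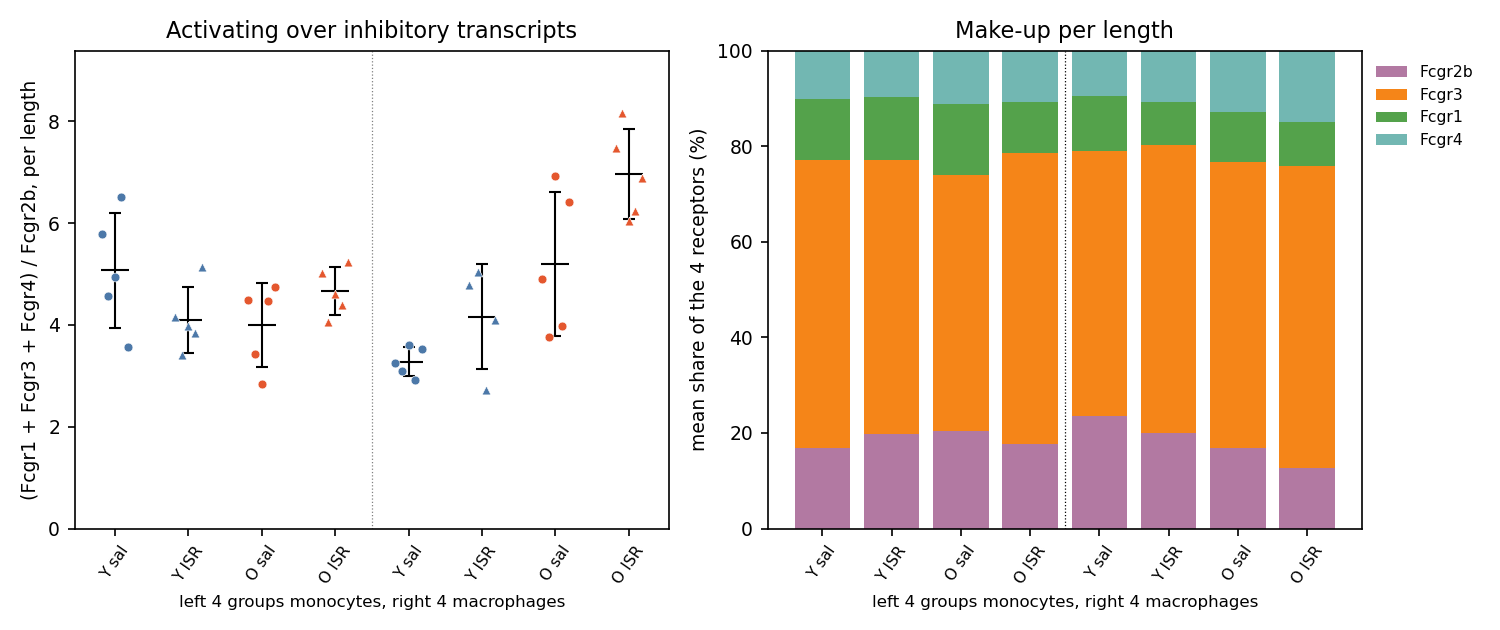
Left, ratio of activating (Fcgr1, Fcgr3 and Fcgr4) to inhibitory (Fcgr2b) transcripts per kilobase in each library (vertical axis from 0; bars means, whiskers SD); right, mean share of the 4 receptors per group in percent. The mean ratio is lowest in young saline macrophages (3.28) and highest in old ISRIB macrophages (6.96), and 1 young ISRIB macrophage library is at 2.72.

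The make-up of the 4 receptors for IgG was computed from CPM per kilobase, as a description of the same values with no test. Fcgr3 made up 53.5% to 63.2% of the total in every group. In macrophages of young mice Fcgr2b made up 23.5% ± 1.59 (SD, n = 5) with saline and 20.1% ± 4.70 (SD, n = 4) with ISRIB. In those of old mice its share was 16.8% ± 3.77 (SD, n = 5) with saline and 12.7% ± 1.37 (SD, n = 5) with ISRIB. In monocytes it was 16.95% to 20.5% by group. The ratio of activating to inhibitory transcripts was 3.28 ± 0.29 (SD, n = 5) in young saline and 4.16 ± 1.04 (SD, n = 4) in young ISRIB macrophages. In old macrophages it was 5.20 ± 1.42 (SD, n = 5) with saline and 6.96 ± 0.88 (SD, n = 5) with ISRIB. Old ISRIB libraries (6.04 to 8.16) did not overlap young ISRIB libraries (2.72 to 5.04), and all old saline libraries (3.77 to 6.93) lay above all young saline ones (2.92 to 3.60). With the length of the longest transcript in place of all exons, the macrophage means were 2.43, 3.10, 3.85 and 5.15 in the same order. In monocytes the ratio was 5.07 and 4.10 in young saline and ISRIB and 3.997 and 4.66 in old saline and ISRIB libraries, with overlapping ranges.

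Between cell types, Fcgrt showed the largest difference of the 6 members. It was at 54.7, 42.5, 42.2, 94.7 and 47.5 CPM in young saline monocytes and 185, 167, 155, 227 and 155 CPM in young saline macrophages. In old saline mice it was at 47.7, 44.8, 45.2, 36.9 and 73.7 CPM in monocytes and 152, 166, 244, 123 and 184 CPM in macrophages. The groups did not overlap at either age, and the difference was 1.67 ± 0.20 in young (SE, log2; 3.18-fold; edgeR adjusted p = 1.60e-09) and 1.81 ± 0.20 in old mice (SE; 3.51-fold; edgeR adjusted p = 2.29e-10). Without replicates 1 and 4 of young saline monocytes it was 2.01 ± 0.21 in young mice (SE; edgeR adjusted p = 1.54e-10). B2m, the beta-2-microglobulin that Fcgrt pairs with, was higher by 0.39 and 0.63 at the same ages, with overlap at both. It was at 1329 to 2544 CPM in monocytes and 2189 to 2793 CPM in macrophages of young saline mice. In old saline mice it was at 1614 to 2287 CPM and 1945 to 3791 CPM.

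Of the receptors for IgG, Fcgr2b was higher in macrophages of young saline mice by 0.91 ± 0.17 (SE, log2; 1.89-fold; edgeR adjusted p = 1.48e-05). Its lowest young macrophage library (609 CPM) was above the highest young monocyte library (530 CPM). In old saline mice the difference was 0.17 ± 0.17 (SE; edgeR adjusted p = 0.400) and the ranges overlapped. Fcgr3 was higher in both ages, by 0.32 ± 0.12 in young (SE; adjusted p = 0.0234) and 0.65 ± 0.12 in old mice (SE; adjusted p = 1.94e-05). In young mice that call was lost without replicate 2 or 3 of young saline monocytes or replicate 4 of young saline macrophages (adjusted p up to 0.0765). In all, edgeR called 3 of 6 members at each age, where 60.0% of 13587 genes were called in young mice and 57.0% in old mice. The share of members called was thus no larger than that of all genes. Without replicates 1 and 4 of young saline monocytes, 4 of 6 members were called in young mice, beside 7834 of all genes. Fcgr2b was then at 0.84 ± 0.20 and Fcgr3 at 0.45 ± 0.14 (SE; edgeR adjusted p = 5.09e-04 and 0.00662). The member added was Fcgr4, whose highest value of the group was in replicate 1, so its difference had to rise.

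Fcgr4 was called between cell types in old saline mice (0.74 ± 0.27, SE; edgeR adjusted p = 0.0170), but not without old saline monocyte replicate 2 or old saline macrophage replicate 5 (adjusted p up to 0.0593). In young saline mice it gave 0.31 ± 0.27 (SE; adjusted p = 0.326). The 5 young saline monocyte libraries had 111, 43.2, 40.5, 24.7 and 40.3 CPM, and without replicate 1, the first of these, the difference was 0.79 (edgeR adjusted p = 0.00497). Without replicates 1 and 4 it was 0.65 ± 0.26 (SE; edgeR adjusted p = 0.0289). Fcgr1 and Fcer1g were called at neither age: Fcgr1 gave 0.26 ± 0.21 and -0.02 ± 0.21, and Fcer1g -0.10 ± 0.09 and -0.12 ± 0.09 (SE, young and old). Without replicates 1 and 4 of young saline monocytes, Fcer1g in young mice was 0.07 ± 0.08 (SE; adjusted p = 0.455).

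Cell type markers, those of the sorted cells included, differed widely between the 2 sorts. In young saline mice, all 11 mature alveolar macrophage markers were higher in macrophages (summed level 3826 to 4018 CPM against 31.4 to 142 CPM in monocytes), all 10 nonclassical monocyte markers were lower (1200 to 1299 CPM against 3109 to 7830 CPM), and 7 of 8 classical monocyte markers were lower (4092 to 7039 CPM against 5664 to 12337 CPM). All 6 epithelial markers tested were higher (75.3 to 126 CPM against 0.546 to 2.04 CPM), as were all 3 fibroblast markers tested (1.51 to 25.8 CPM against at most 0.456 CPM). Of 10 B and plasma cell markers 5 were lower, with sums of 8.53 to 30.1 CPM against 152 to 248 CPM. The counts of these lists stand beside 60.0% of all genes called in this comparison. Neutrophil sums were 49.1 to 61.4 CPM against 373 to 475 CPM. The relation of these markers to the members' differences was not tested.

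Genes that act with the receptors were followed as lists. In macrophages with age, none of 8 kinases of the activating motif, 20 engulfment genes or 6 NADPH oxidase subunits tested was called by edgeR, where 4.86% of all genes were called. Of 14 inhibitory regulators 1 was called, Inpp5d, the lipid phosphatase recruited by Fcgr2b, lower by 0.20 ± 0.05 (SE, log2, averaged; edgeR adjusted p = 0.0276). Inpp5d was at 308 to 339 CPM in young ISRIB and 241 to 285 CPM in old ISRIB macrophages with no overlap, and at 275 to 348 CPM and 268 to 316 CPM with saline, which overlapped. Of 22 adaptors and effectors 1 was called, Plcg2, a phospholipase downstream of Syk, lower by 0.22 ± 0.06 (SE; adjusted p = 0.0274). One call in lists of 14 and 22 genes is near the share of all genes. The lists' median log2 difference was 0.02 for kinases, 0.03 for adaptors and effectors, -0.04 for inhibitory regulators, -0.08 for engulfment genes and 0.09 for the oxidase, beside 0.00448 over all genes tested.

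Among other receptors related to immunoglobulin, 1 of 8 tested was called: Fcrls, an Fc receptor-like gene of mouse myeloid cells, fell by 0.80 ± 0.11 (SE, log2; edgeR adjusted p = 4.63e-05). It was at 62.4 to 104 CPM in young saline and 34.9 to 53.3 CPM in old saline macrophages without overlap, and at 48.1 to 78.6 CPM and 31.98 to 45.4 CPM under ISRIB, again without overlap. In monocytes the group means of Fcrls were 0.178 to 0.699 CPM. All 6 immunoglobulin constant genes and J chain tested rose with age in macrophages, such as Igkc by 4.65 ± 0.47 (SE; adjusted p = 1.12e-06) and Ighm by 3.90 ± 0.47 (SE; adjusted p = 1.32e-05). Igkc, Ighm and Jchain also belong to the B and plasma cell markers, whose sums are given above. Single genes were called in 3 further lists, all higher: Cd300a among 13 inhibitory receptors (0.39 ± 0.09), Clec4d among 13 receptors coupled to the activating motif (0.62 ± 0.17) and Cd274 among 15 genes induced by interferon gamma (0.42 ± 0.08; SE, log2). Such single calls stand beside 4.86% of all genes called. Tyrobp, the other adaptor with the activating motif in myeloid cells, gave 0.03 ± 0.06 (SE; adjusted p = 0.832) and B2m 0.07 ± 0.10 (SE; adjusted p = 0.805).

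**Figure D4:**
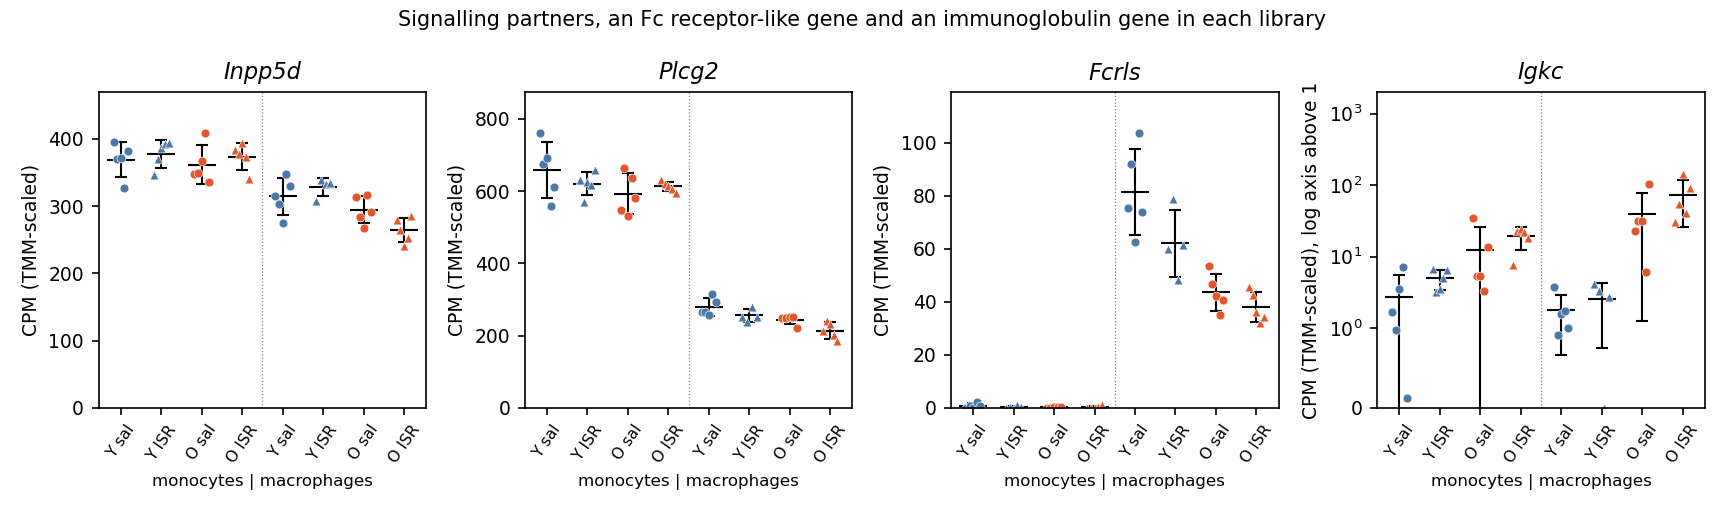
TMM-scaled CPM per library of Inpp5d, Plcg2, Fcrls and Igkc (4 monocyte groups left, 4 macrophage groups right; circles saline, triangles ISRIB, blue young, red old; bars means, whiskers SD; the Igkc axis is linear below 1 CPM and logarithmic above). Fcrls is lower in old than in young macrophages and near 0 in monocytes, and Igkc is higher in old macrophages.

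With ISRIB in macrophages, both ages averaged, the calls in these lists were Dok2 (an adaptor that restrains the activating signal, 1 of 14 inhibitory regulators, -0.56 ± 0.13) and Irf1 and Ciita (2 of 15 genes induced by interferon gamma, -0.53 ± 0.11 and -0.73 ± 0.15; SE, log2), where 0.83% of all genes were called. Fcgr1, which interferon gamma is known to induce, differed by -0.15 ± 0.09 (SE; edgeR adjusted p = 0.412) in the same comparison. Between cell types in young saline mice, 6 of 9 kinases of the activating motif were lower in macrophages, among them Lyn (-1.24 ± 0.09) and Syk (-0.81 ± 0.11), and 1 was higher (Src, 6.58 ± 0.50). Of 14 inhibitory regulators 11 were lower, among them the phosphatase Ptpn22 (-4.13 ± 0.22), and 2 were higher, among them Dok2 (3.35 ± 0.28). In old saline mice 3 of 9 kinases were lower and 2 higher, and 10 of 14 inhibitory regulators lower and 2 higher. These counts stand beside 60.0% of all genes called in young and 57.0% in old mice. The medians of these lists were -0.46 and -0.61 in young and -0.26 and -0.71 in old mice, beside 0.00733 and 0.00145 over all genes.

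The chromosome 1 interval from Fcgr2b to Fcer1g spans 275749 bases and 17 annotated genes. With age in macrophages, Fcgr2b fell and Fcgr4 rose while Fcgr3 and Fcer1g in the same interval were not called. Of the 3 other genes there with enough counts, Sdhc, a subunit of mitochondrial complex II, gave -0.06 ± 0.06 (SE; edgeR adjusted p = 0.689), Tomm40l 0.01 ± 0.18 (SE; adjusted p = 0.988) and Cfap126 0.40 ± 0.41 (SE; adjusted p = 0.678).

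The genes whose library-to-library pattern was closest to each member were found by the root mean square difference of centred log2 CPM over 39 libraries among 8376 genes. They were Ciao2a (0.208) and Snx2 (0.257) for Fcgr2b, Atp6ap1 and Tbc1d22a (both 0.176) for Fcgr3, and Chp1 (0.369) and Tmem214 (0.380) for Fcgr4. For Fcer1g they were Myl12b (0.0999) and Brk1 (0.102), for Fcgrt Tbrg1 (0.268) and Adipor2 (0.291), and for Fcgr1 Snx2 (0.264) and Rrbp1 (0.265). A gene of the same level in all libraries would lie at a distance equal to the member's own root mean square around its mean. That was 0.428 for Fcgr2b, 0.371 for Fcgr3, 0.615 for Fcgr4, 0.148 for Fcer1g, 0.964 for Fcgrt and 0.373 for Fcgr1. A small distance can thus come from low variation as well as from a shared pattern. No member was among the 2 closest genes of another. The closest member to Fcgr4 was Fcgr3, at rank 249 with 0.463. Over the 20 monocyte libraries alone, the genes closest to Fcgr4 were Gyg (0.373), Trpm2 (0.379) and Bak1 (0.387), beside 0.532 for a gene of the same level throughout.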

How the data were processed

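Libraries were polyA-selected from 3 ng of total RNA, per the labels' protocols. The deposited table holds counts of reads, unscaled, for each Ensembl gene in each library, made by the authors; the submitters' processing notes name bcl2fastq 2.19.1, FastQC, Trimmomatic 0.36, STAR 2.6.0, HTSeq 0.11.2 and the build mm10. The annotation and strand setting are not stated in any source used. Symbols came from GENCODE vM21, which matched 42546 of 43430 IDs (98.0%) and 237 of 241 list symbols.

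Genes were tested with edgeR 4.0.16 (R 4.3.3), with TMM scaling, filterByExpr (minimum count 10, minimum total 15), glmQLFTest and Benjamini-Hochberg adjustment over all genes tested: 12171 in the 19 macrophage libraries, 12170 in the 20 monocyte libraries and 13587 in all 39, each group with its own mean. Comparisons across cell types used the last fit. The script was tested on simulated data. In all, 17 comparisons were made. Alternatives were DESeq2 1.42.0, RLE size factors, no filter, a replicate block, all libraries in one fit, library totals without TMM, and leaving out each library. No replicate pair was a duplicate (chi-square per degree of freedom 7.04 to 52.8 over 76 pairs). The precision of a level is limited by depth, with 4595331 to 16056708 counts per library.

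The 6 members are named whatever their values. Of each list at most 5 called genes per comparison are named, those with the largest differences, and beside these Siglecf, Ly6c2, B2m, Tyrobp, the genes of the chromosome 1 interval and the 2 genes closest in pattern to each member (for Fcgr4 also 3 over monocytes). The members and lists were chosen with earlier results of these data known. Promoter and transcript sequences were searched as letters only.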

Additional observations from a re-analysis of the deposited data

Results flagged for a closer look

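In 3 of 48 sets of one gene and one group, 1 library lay far from the others by Dixon's test at the 95% level, a rule that chance meets in about 1 of 20 sets. All 3 were in young saline monocytes. Fcgr4 was at 111 CPM in replicate 1 and at 24.7 to 43.2 CPM in the other 4, and the nonclassical monocyte markers, a class known to carry Fcgr4, summed to 7830 CPM in that library and 7803 CPM in replicate 2. Fcer1g was at 797 CPM in replicate 4 and at 515 to 593 CPM in the others. Fcgrt was at 94.7 CPM in replicate 4 and at 42.2 to 54.7 CPM in the others. Replicate 4 had the lowest total of all libraries, 4595331 counts.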

How the results depend on the processing

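Member calls moved with the setting in 7 comparisons. With age in saline macrophages DESeq2 called 1 member and no filter 2 (edgeR 0), and with age in ISRIB macrophages no filter called 2 and the fit of all 39 libraries 0 (edgeR 1). With age averaged, the 39-library fit called 1 and the fit without the 3 libraries highest in B cell markers called 1 (edgeR 2). With ISRIB averaged over ages, no filter called 1, Fcgr4 (adjusted p = 0.0277). For the age effect in macrophages minus monocytes, DESeq2, no filter and library totals each called 1 (edgeR 0), Fcgr2b in each. Between cell types, 4 members instead of 3 were called in young mice without replicates 1 and 4 of young saline monocytes (Fcgr4 added) and in old mice with library totals (Fcer1g added, -0.26, adjusted p = 0.0187). Leaving out 1 library gave 0 to 1 members for age in saline and in ISRIB macrophages, 1 to 2 for age averaged, 0 to 2 for ISRIB averaged, 0 to 1 for the difference of age effects, and, between cell types, 2 to 4 in young and 2 to 3 in old mice. Of the member values, 4 changed sign under other settings, none of them called: Fcgr1 in the difference of age effects with library totals (-0.028), and, without replicates 1 and 4 of young saline monocytes, Fcer1g (0.077) and Fcgrt (0.18) with age in saline monocytes and Fcer1g (0.075) between cell types. Leaving out 1 library also turned the sign of these log2 differences, none of them called. In macrophages they were Fcgrt with age in saline (-0.19 to 0.073), Fcgr1 and Fcgr3 with age under ISRIB (-0.14 to 0.020 and -0.081 to 0.063), Fcgr2b with ISRIB in young mice (-0.24 to 0.0015), and Fcgr1, Fcgr4 and Fcer1g in the ISRIB effect of old minus young mice (-0.012 to 0.18, -0.13 to 0.094 and -0.080 to 0.035). In monocytes with age they were Fcgr4, Fcer1g and Fcgrt in saline (-0.14 to 0.50, -0.15 to 0.041 and -0.35 to 0.11), Fcgr4 and Fcer1g under ISRIB (-0.019 to 0.34 and -0.041 to 0.026), and Fcgr1, Fcgr2b, Fcer1g and Fcgrt averaged (-0.19 to 0.013, -0.030 to 0.11, -0.082 to 0.015 and -0.037 to 0.19). In monocytes with ISRIB they were Fcgr1 and Fcgr4 in young mice (-0.24 to 0.13 and -0.40 to 0.23), Fcgr3 and Fcgr4 in old mice (-0.036 to 0.15 and -0.28 to 0.049), Fcgr4 and Fcgrt averaged (-0.26 to 0.071 and -0.11 to 0.077), and Fcgr4 and Fcer1g in old minus young mice (-0.32 to 0.31 and -0.052 to 0.14). Across cell types they were Fcer1g in young mice (-0.15 to 0.031), Fcgr1 in old mice (-0.15 to 0.11) and Fcgr1 in the difference of age effects (-0.10 to 0.10).

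Counts of all genes called varied more: no filter called 468, 405 and 975 genes with age in saline, ISRIB and averaged macrophages (edgeR 141, 114 and 592), DESeq2 called 294 and 260 in the first 2, the 39-library fit 60, 50 and 340, and the fit without the 3 libraries highest in B cell markers 43, 22 and 228. With ISRIB in young and old macrophages, where edgeR called 0, DESeq2 called 105 and 43, no filter 224 and 220, the block 10 in young and the 39-library fit 1 in old mice; the difference between the 2 gave 33 with no filter and 1 with the block. In monocytes with age, saline gave 46 with DESeq2, 15 with no filter, 7 with the block, 34 in the 39-library fit and 0 without replicates 1 and 4 of young saline monocytes (edgeR 3), ISRIB gave 22, 41 and 33 with DESeq2, no filter and all 39 libraries (edgeR 0), and the average 83, 40 and 44 (edgeR 15). In monocytes with ISRIB, old mice gave 14, 21 and 17 (edgeR 0), the average 1 with DESeq2 and 2 with 39 libraries, and the difference between ages 12 with no filter and 22 with 39 libraries (edgeR 0). Leaving out 1 library gave 47 (without old saline replicate 5) to 289 genes (without old saline replicate 2) with age in saline macrophages and 33 (without young ISRIB replicate 3) to 161 genes with age under ISRIB, and 415 to 723 with age averaged. It gave 0 to 30 with ISRIB in old macrophages (30 without old saline replicate 3) and, in monocytes with age, 0 to 8 in saline, 0 to 17 under ISRIB and 6 to 25 averaged. With ISRIB averaged the range was 17 (39-library fit) to 640 (no filter), with DESeq2 at 440 and the block at 343 (edgeR 101). The difference of age effects gave 222 with DESeq2 (edgeR 101). The labels do not say whether replicate numbers pair the samples. Of 27 same-numbered macrophage pairs 5 correlated over 0.1 (-0.215 to 0.313), and of 30 monocyte pairs 6 (-0.312 to 0.383). Libraries correlated best with their own number in 15 of 57 macrophage and 7 of 60 monocyte cases. These values do not settle whether the numbers pair samples, and the block raised the genes called with ISRIB averaged in macrophages from 101 to 343. With the replicate number as a block, no member call changed, with Fcgr2b at -0.60 (adjusted p = 0.00118) and Fcgr4 at 0.38 (adjusted p = 0.0446) for age averaged. Depth limits Fcgr4 most, with 121 counts in its lowest library.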

Other observations

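Other genes of antibody-driven uptake differed between macrophages and monocytes of young saline mice, where 60.0% of all genes were called. Of 20 engulfment genes tested, edgeR called 4 higher and 10 lower in macrophages, among them Pla2g6 (2.22 ± 0.24), Coro1a (-1.93 ± 0.12), an actin-binding coronin, and Rac2 (-0.89 ± 0.10; SE, log2). Of 6 NADPH oxidase subunits 2 were higher and 4 lower, with the cytosolic subunit Ncf4 at -1.53 ± 0.13 and the membrane subunit Cyba at 0.63 ± 0.10. In old saline mice 2 of the 20 engulfment genes were higher and 9 lower, and 2 oxidase subunits were higher and 3 lower.

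Receptors that share signalling motifs with the Fc receptors moved in both directions, beside 60.0% of all genes called in young saline mice. Of 13 receptors coupled to the activating motif, 5 were higher and 5 lower in macrophages of young saline mice, with Clec4n (Dectin-2) at 5.64 ± 0.29, Trem2 at 3.07 ± 0.22 and Trem3 at -3.83 ± 0.35. Of 13 inhibitory receptors 6 were higher and 7 lower, with Cd22 at 5.19 ± 0.23 and Pecam1 at -2.74 ± 0.35. The Fc receptor-like genes Fcrls (7.15 ± 0.45) and Fcrlb (6.16 ± 0.72) were higher. Cell type and bleomycin cannot be told apart in these comparisons.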
